A study of Mus musculus with 5 samples.

Results

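9 receptor tyrosine kinase genes (Kit, Ret, Met, Pdgfra, Pdgfrb, Fgfr1, Axl, Epha2 and Csf1r) and Hgf, the ligand of Met, were followed across 5 microarrays of mouse sarcoma cells. The members are the named genes whose RefSeq accession on the array maps to these symbols, which gave 10 genes and 14 probes, of 20016 named genes and 55681 probes in all. Csf1r and Fgfr1 had 3 probes each and the other members 1 probe each. The Met and Pdgfra probes had 10 spots per array and the Kit probe 2. Every probe of the other members had 1 spot, so their values have no replicate within an array. Where a gene had several probes, the brightest stood for it.

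The arrays measured total RNA of tumour cells on a mixed C57/BL6, 129 and ICR background, taken from lines that grew out of soft tissue sarcomas of mice carrying a doxycycline-inducible EWS/ATF1 allele. EWS/ATF1 is the fusion protein of clear cell sarcoma, and doxycycline sets how strongly the allele is expressed. All groups carried that allele and were labelled as tumor cells. The groups were a 3 h control, 3 h low doxycycline, 3 h high doxycycline, 48 h high doxycycline and a 48 h control, with 1 array each. The doxycycline concentration, what the control cultures received and which tumour line lay behind each array is not given in these sources. Tumour line and treatment therefore cannot be told apart. With 1 array per group there was no replicate and no test between arrays.

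Receptor tyrosine kinases are membrane proteins that bind a ligand outside the cell, pair up and phosphorylate each other on tyrosines inside it. The phosphotyrosines recruit adaptors that feed the Ras-MAP kinase and PI3-kinase pathways, and ubiquitin ligases and phosphatases end the signal. Met has been studied in human clear cell sarcoma as a receptor whose gene is a target of the melanocyte factor MITF, and Kit and Ret serve melanocytes, germ cells and neural crest derivatives. ATF1 is a bZIP factor of the CREB family, which binds the cAMP response element.

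The promoters of 2 members are printed because Epha2 and Kit were both 2-fold higher in the 3 h high-dose array, while the full cAMP response element was found upstream of Epha2 and of no other member with a promoter here. Sequences are the 250 bases before the annotated start, read 5′ to 3′ on the gene's strand, from RefSeq on assembly GRCm38.p6. Capitals mark a match to the full cAMP response element TGACGTCA. The Epha2 window lies at chr4:141300971-141301220 (+) and the Kit window, of the first of 2 annotated starts, at chr5:75574737-75574986 (+).
Epha2: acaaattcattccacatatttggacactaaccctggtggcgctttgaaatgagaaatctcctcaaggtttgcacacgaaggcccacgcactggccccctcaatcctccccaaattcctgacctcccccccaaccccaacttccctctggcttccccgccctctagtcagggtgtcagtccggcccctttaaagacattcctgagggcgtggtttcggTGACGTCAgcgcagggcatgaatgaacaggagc
Kit: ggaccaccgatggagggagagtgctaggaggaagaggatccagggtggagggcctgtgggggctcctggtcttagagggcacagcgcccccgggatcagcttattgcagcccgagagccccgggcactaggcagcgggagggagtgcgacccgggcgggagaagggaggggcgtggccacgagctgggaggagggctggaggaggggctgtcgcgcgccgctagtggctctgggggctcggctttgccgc

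The match in the Epha2 window began 33 bases before the start. The full element was present in 508 of 32851 promoter windows of this length, or 1.55%. Promoter windows were at hand for 6 of the 10 members, 8 windows in all, and each was searched on both strands for the full element, for its half-site TGACG and for the AP-1 element TGANTCA. Half-site matches within the Epha2 window both lay inside the full element. Kit held none of the 3 motifs. The Pdgfra window held a half-site beginning 218 bases before the start, and the half-site was present in 17.8% of all windows. The Met window held an AP-1 match beginning 54 bases before the start, and 6.75% of all windows held one. Neither Hgf nor Axl had a match. A match is a description of letters and not of binding.

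All 10 members, and each of their 14 probes, were well above background on all 5 arrays. Levels are log2 of the processed spot intensity minus the 75th percentile of that array, so 0 is that percentile. A gene was counted as higher or lower where it differed at least 2-fold between arrays, a log2 difference of 1 or more, and was above background on both. Errors beside differences are built from the scanner software's error of each spot, combined over spots and over the 2 arrays as if independent. They hold no variation between cultures. For a bright probe of 1 spot the error was near 0.144 on each array, so ± 0.204 recurs. Probes of 10 spots have smaller errors through the averaging. Levels of single genes are read between arrays for each probe and not between genes. The summed linear levels of marker lists do add probes of different genes, so a gene's share of a sum is a share of signal and not of RNA.

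At 3 h, high doxycycline was accompanied by higher levels of 3 members, the receptors Ret, Kit and Epha2, and no member was lower. The log2 differences were 1.58 ± 0.204 for Ret, 1.37 ± 0.175 for Kit and 1.06 ± 0.204 for Epha2. Among all 14005 genes measured on both arrays, 1.85% were 2-fold higher and 1.45% were 2-fold lower. The median difference of the 10 members was 0.26, beside -0.01 over all genes. The low dose left 1 member, Ret, 2-fold higher and none lower, against 0.789% of genes higher and 0.583% lower. Between the high and the low dose no member differed 2-fold, where 1.27% of genes were higher and 0.913% lower. The 2 doses share the 3 h control array.

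At 48 h, high doxycycline was accompanied by higher Epha2 and Csf1r and by lower Pdgfra, Axl and Pdgfrb. Of all 13739 genes measured on both arrays, 9.94% were 2-fold higher and 10.1% lower. The median difference of the members was 0.04, beside 0.05 over all genes. Between the controls, the 48 h array against the 3 h array, 2.50% of genes were 2-fold higher and 1.36% lower, and 1 member, Pdgfra, was higher.

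**Figure D1:**
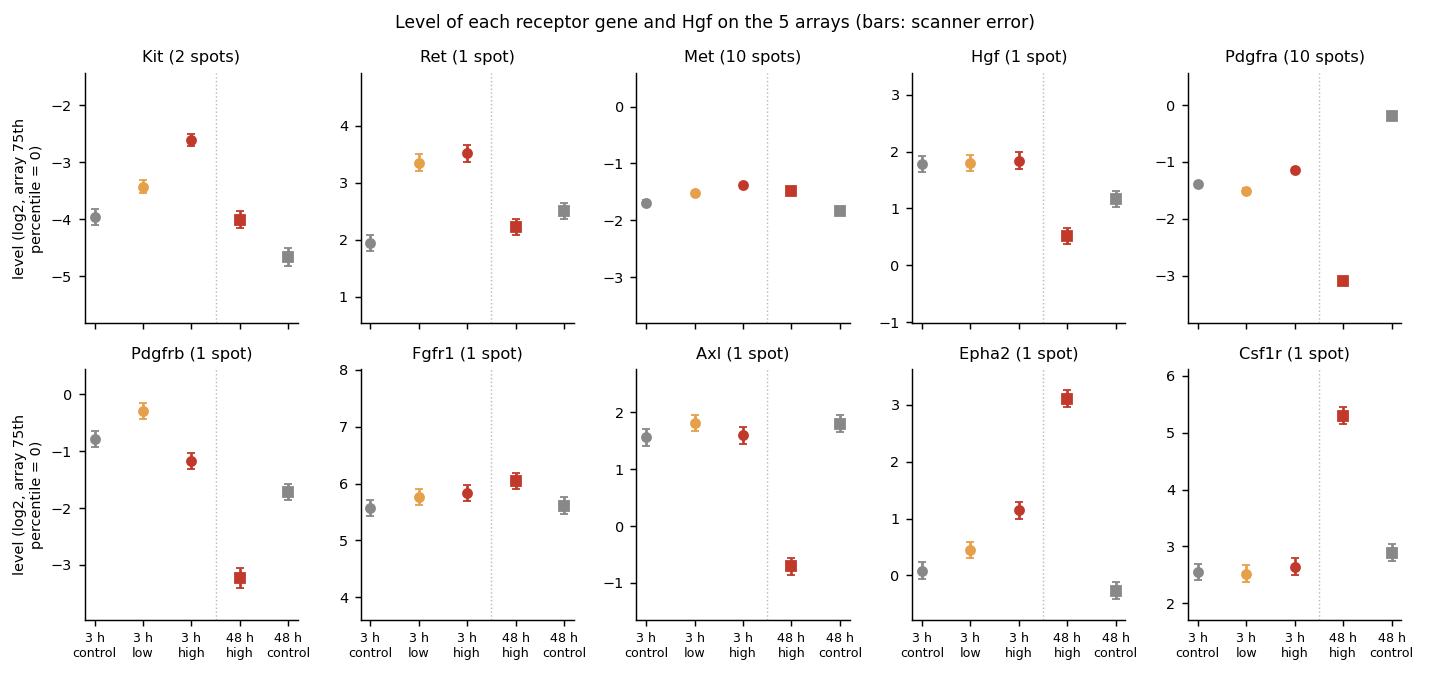
Level of each member on each of the 5 arrays, as log2 intensity minus the array's 75th percentile, with 1 panel per gene and the same height of axis in each. Circles are 3 h arrays (control, low and high dose) and squares are 48 h arrays (high dose, then control), each a single array, and bars are the scanner software's error. Ret stands higher in both dosed 3 h arrays, and Pdgfra, Pdgfrb, Axl, Epha2 and Csf1r separate in the 48 h pair.

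Ret is the receptor of the GDNF family of ligands, which it binds together with a GFRA co-receptor. Its level was 1.94 in the 3 h control, 3.36 in the 3 h low-dose and 3.52 in the 3 h high-dose array, and 2.22 in the 48 h high-dose array against 2.51 in the 48 h control. Both dosed 3 h arrays stood above all others, and they differed from each other by 0.16 ± 0.204, which is within the scanner error. The low-dose difference from the 3 h control was 1.42, a 2.67-fold higher level, and that of the high dose was 2.99-fold. Set against the 48 h control instead, the high dose was higher by 1.01 and the low dose by 0.85, so that the low-dose array no longer met 2-fold. At 48 h the difference was -0.28 ± 0.204.

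Gdnf, which encodes a ligand of Ret, was at 3.60 in the 3 h control, 4.02 with low and 4.58 with high doxycycline, and at 4.35 in the 48 h high-dose array against 3.61 in the 48 h control. The high-dose differences, 0.98 at 3 h and 0.75 at 48 h, were short of 2-fold. Artn, which encodes another ligand, lay at -0.65 in the 48 h control and between -3.18 and -2.65 in the other 4 arrays. The co-receptor gene Gfra3 was 8.42-fold higher in the 48 h high-dose array than in the 48 h control, at 0.34 against -2.74. Gfra1, the co-receptor of GDNF, was 1.88 higher in the same pair, and it was 1.43 lower in the 48 h control than in the 3 h control, on the log2 scale.

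Kit is the receptor of stem cell factor and is needed by melanocytes, mast cells and germ cells. Its level was -3.97 in the 3 h control, -3.43 with low and -2.60 with high doxycycline, and -4.01 in the 48 h high-dose array against -4.67 in the 48 h control. The 3 h high-dose array was the highest and the 48 h control the lowest. The high dose at 3 h was 2.58-fold above its control, and the low dose was 0.54 ± 0.180 above it on the log2 scale. At 48 h the scaled difference was 0.66 ± 0.220, while the unscaled signals were 26.4 in the high-dose array and 25.8 in the control. The Kit probe had 2 spots per array, and its signal, 25.8 to 91.8, was low. With another background correction (normexp), which also adds 50 to each signal, the 3 h high-dose difference was 0.85, under 2-fold. An added constant makes the differences of dim probes smaller. Kitl, the gene of stem cell factor, lay between -3.48 and -2.85 on all 5 arrays and differed by less than 2-fold in every comparison.

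Markers of other cells that carry Kit were read on the same arrays. Of 9 mast cell markers on the array, 3, 3 and 4 were above background in the 3 h arrays (control, low, high), and 2 in the 48 h high-dose array against 3 in the 48 h control. Their summed linear level was 1.20, 1.40 and 1.44 at 3 h, and 0.759 in the 48 h high-dose array against 1.07 in the 48 h control. The mast cell genes Cpa3, Cma1 and Ms4a2 were not above background on any array, and Fcer1a was above it only on the 3 h high-dose array, at -4.99. Tpsb2 and Gata2 were above background on all 5 arrays, and Hdc on all but the 48 h high-dose array. Tpsb2 was at -1.06, -0.66 and -0.26 at 3 h, and at -1.67 in the 48 h high-dose array against -0.40 in the 48 h control. Gata2 was at -0.71, -0.61 and -1.02 at 3 h, and at -1.38 against -2.13 at 48 h. Of 10 melanocyte markers 4, 5 and 4 were above background at 3 h, and 4 in the 48 h high-dose array against 5 in the 48 h control. Their summed linear level was 5.39, 5.35 and 6.52 at 3 h, and 8.46 in the 48 h high-dose array against 7.01 in the 48 h control, of which Mitf made up 92.6% and 89.0%. At 48 h 4 of these markers were measured and 0 differed 2-fold. Mitf, the melanocyte transcription factor, lay between 2.22 and 2.97 and Sox10 between -2.40 and -2.07. The pigment genes went both ways. Dct and Tyrp1 were not above background on any array, while Tyr and Pmel were above it on all 5. Tyr lay between -3.58 and -3.14 and Pmel between -2.02 and -1.38. The part of these cells' RNA in the Kit result was not tested, and in bulk RNA fewer cells of a type and less RNA per cell cannot be told apart.

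Met, the receptor of hepatocyte growth factor, varied little. It was read on 10 spots per array, 9 of them usable on the 48 h high-dose array. Its level was -1.69 in the 3 h control, -1.53 with low and -1.38 with high doxycycline, and -1.48 in the 48 h high-dose array against -1.84 in the 48 h control. The highest and lowest arrays were 1.37-fold apart. The differences, 0.31 ± 0.065 for the high dose at 3 h and 0.36 ± 0.067 at 48 h, exceeded the scanner error and were well short of 2-fold. Unscaled, the 48 h high-dose signal, 150.8, was below that of the 48 h control, 181.7, so the direction at 48 h rests on the scaling, since the 75th percentile was 420 in the high-dose array and 649 in the control.

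Hgf encodes the ligand of Met. Its level was 1.78 in the 3 h control, 1.79 with low and 1.84 with high doxycycline, and 0.51 in the 48 h high-dose array against 1.16 in the 48 h control. The 3 h arrays were within the scanner error of each other. At 48 h the difference was -0.65 ± 0.204, and against the 3 h control it was -1.27, past 2-fold.

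HGF is made as an inactive chain that proteases cleave. Among 14 genes of HGF activation and its inhibitors, 7 were measured at 3 h and 1 was 2-fold higher in the high-dose array, namely Plau, a protease that activates plasminogen. Plau was at -2.94 in the 3 h control, -0.98 with low and -0.95 with high doxycycline, and at -1.08 in the 48 h high-dose array against -3.77 in the 48 h control. All 3 dosed arrays were thus above both controls, by 1.96 and 1.99 at 3 h and by 2.69 at 48 h. At 48 h, 3 of 8 measured genes of this list were higher and none lower, beside 9.94% and 10.1% of all genes. The others were Sdc1, a heparan sulfate proteoglycan, higher by 1.38, and Plat, tissue plasminogen activator, higher by 1.02.

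Pdgfra encodes the alpha receptor of platelet-derived growth factor, a receptor of mesenchymal cells. Its 10 spots gave a level of -1.39 in the 3 h control, -1.51 with low and -1.15 with high doxycycline, and -3.09 in the 48 h high-dose array against -0.20 in the 48 h control. The 48 h high-dose array was the lowest of the 5 and the 48 h control the highest. The difference at 48 h was -2.89 ± 0.0707, a 7.41-fold lower level with high doxycycline. The 48 h control was itself 1.20 above the 3 h control, or 2.30-fold. Against the 3 h control the 48 h high-dose array was lower by less, at -1.69. With the normexp correction, which adds 50 to each signal, the 48 h difference was -1.91.

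Pdgfrb, the beta receptor, is a marker of pericytes and other mesenchymal cells. Its level was -0.78 in the 3 h control, -0.29 with low and -1.17 with high doxycycline, and -3.23 in the 48 h high-dose array against -1.72 in the 48 h control. The 48 h high-dose array was again the lowest, with a signal of 44.6 against 197.5 in the 48 h control. The difference was -1.52 ± 0.224, 2.86-fold lower, but -0.73 with the normexp correction, under 2-fold. That correction adds 50 to each signal, which is more than the 44.6 read in the 48 h high-dose array. At 3 h the dosed arrays lay on either side of the control, higher by 0.49 with low doxycycline and at -0.39 with high doxycycline.

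Of 12 fibroblast and mesenchymal markers, 7 were 2-fold lower and 0 higher in the 48 h high-dose array than in the 48 h control, with a median of -1.45. Of all genes measured in that pair, 10.1% were lower and 9.94% higher. All 12 were above background on all 5 arrays, with a summed linear level of 215, 261 and 264 at 3 h (control, low, high), and 155 in the 48 h high-dose array against 265 in the 48 h control. At 48 h the collagen gene Col3a1 differed by -3.17 and the matrix proteoglycan gene Lum by -3.63, while the transcription factor gene Twist2 differed by 0.85. All 7 pericyte and mural markers were above background on the 4 other arrays and 5 on the 48 h high-dose array, where Cspg4 and Abcc9 were not and were lower as a bound. Notch3 was 1.79 and Kcnj8 1.23 higher in that array than in the 48 h control, so the list went both ways. Its summed linear level, 72.8 in the 48 h high-dose array against 38.1 in the 48 h control and between 45.9 and 48.0 at 3 h, was almost all Mcam, which made up 93.8% of it in that array and 94.7% in that control. The part of these markers' cells in the receptor differences was not tested. Among the ligands, Pdgfa lay at 4.33 in the 48 h high-dose array against 3.57 in the 48 h control.

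**Figure D2:**
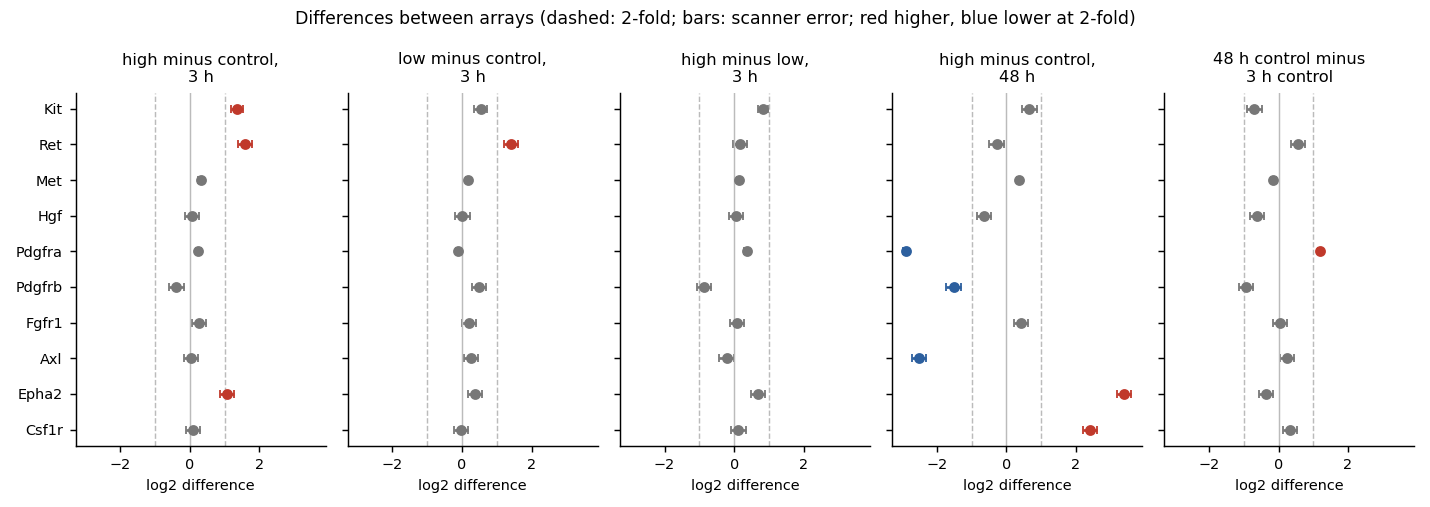
Log2 difference of each member in each of the 5 comparisons, with 1 panel per comparison and dashed lines at 2-fold. Points are single-array differences, bars are the scanner error, and red and blue mark members higher or lower at 2-fold. Epha2 at 3.38 and Csf1r at 2.41 lie on the right in the 48 h panel, with Pdgfra at -2.89, Axl at -2.51 and Pdgfrb at -1.52 on the left.

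Fgfr1, a receptor of fibroblast growth factors, differed by less than 2-fold in every comparison on each of its 3 probes. The probe that stood for it read 5.57 in the 3 h control, 5.76 with low and 5.84 with high doxycycline, and 6.04 in the 48 h high-dose array against 5.61 in the 48 h control. The 48 h difference was 0.43 ± 0.204 on that probe and 0.46 and 0.38 on the other 2. Unscaled, all 3 signals were lower in the 48 h high-dose array, at 27679 against 31757 in the 48 h control on the standing probe, so this direction rests on the scaling too. Between the controls it was 0.04, -0.13 and 0.00 on the 3 probes. All neighbours in the order of the 5 arrays lay within 2 scanner errors of each other.

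Several FGF genes differed in arrays where Fgfr1 did not. Fgf1 was 3.02 higher in the 48 h high-dose array than in the 48 h control, at 3.21 against 0.18, and 1.06 lower in the 3 h high-dose array than in the 3 h control. Fgf18 was 2.64 higher at 48 h. Fgf7, a ligand that mesenchymal cells make for epithelia, was 2.52 lower at 48 h and was 1.30 higher in the 3 h low-dose array than in the 3 h control. Fgf10, its close relative, was 2.29 lower at 48 h and 1.02 higher in the high-dose than in the low-dose array at 3 h. Over the whole list of 34 ligands and co-receptors of the members, 27 were measured at 48 h, of which 4 were higher and 8 lower, with a median of -0.05. The shares of all genes at 48 h were 9.94% higher and 10.1% lower. At 3 h with the high dose 0 of 27 were higher and 1 was lower, beside 1.85% and 1.45% of all genes.

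Axl belongs to the TAM receptors, which bind GAS6, and of which Tyro3 and Mertk also bind protein S. The Axl level was 1.56 in the 3 h control, 1.81 with low and 1.59 with high doxycycline, and -0.71 in the 48 h high-dose array against 1.80 in the 48 h control. One array, the 48 h high dose, stood below the other 4, which were within 2 scanner errors of each other. The difference was -2.51 ± 0.205, or 5.69-fold lower, and -2.27 against the 3 h control.

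The gene of its ligand, Gas6, was lower in the same array, at 2.78 in the 48 h high-dose array against 6.03 in the 48 h control, 9.48-fold. Pros1, which encodes protein S, was at 1.25 against 2.32, a difference of -1.07. Of the related receptors, Mertk was not well above background in the 48 h high-dose array and lay at -3.57 in the 48 h control, at least 1.71 lower as a log2 bound. Tyro3 was at 2.67 in the 48 h high-dose array against 1.84 in the 48 h control, short of 2-fold. At 3 h, Mertk was also lower with the high dose, by 1.16 on the log2 scale.

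Epha2 encodes an ephrin receptor of epithelial and tumour cells. Its level was 0.09 in the 3 h control, 0.45 with low and 1.14 with high doxycycline, and 3.11 in the 48 h high-dose array against -0.27 in the 48 h control. Both high-dose arrays were above all others. The steps from the low-dose array to the 3 h control and from there to the 48 h control, 0.36 and 0.35, were each within 2 scanner errors. The low-dose array was 0.71 above the 48 h control, which is beyond 2 scanner errors. The signal was 3625 in the 48 h high-dose array and 540 in the 48 h control. The difference at 48 h was 3.38 ± 0.204, a 10.4-fold higher level, and at 3 h it was 2.08-fold for the high dose and 0.36 ± 0.204 on the log2 scale for the low dose. The 3 h call was close to the threshold, at 0.94 when arrays were centred on their median. Epha2 is the member with the full cAMP response element in the window printed above. Efna1, which encodes its best known ligand, was at -0.49 in the 48 h high-dose array against 0.58 in the 48 h control. Of 7 epithelial markers 2, 2 and 4 were above background in the 3 h arrays (control, low, high), and 2 in the 48 h high-dose array against 3 in the 48 h control. Their summed linear level was 0.250, 0.288 and 0.561 at 3 h, and 0.335 in the 48 h high-dose array against 0.251 in the 48 h control. Cdh1, the defining one, was above background on no array, and Epcam only on the 3 h high-dose array, at -2.32. Cldn4 and Esrp1 were above background on all 5 arrays. At 48 h 2 of these markers were measured and 1, Cldn4, was 2-fold higher, beside 9.94% of all genes. Cldn4 was at -4.17, -3.63 and -3.56 at 3 h, and at -2.93 in the 48 h high-dose array against -4.64 in the 48 h control. Esrp1 lay between -2.74 and -2.36. The part of the epithelial markers' cells in the Epha2 result was not tested.

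Csf1r, the receptor of macrophage colony-stimulating factor, was 5.31-fold higher in the 48 h high-dose array than in the 48 h control on the probe that stood for it. That probe read 2.55 in the 3 h control, 2.52 with low and 2.65 with high doxycycline, and 5.30 in the 48 h high-dose array against 2.89 in the 48 h control. A second probe differed by 3.38 ± 0.207 at 48 h, and the third by 0.55 ± 0.205, so that the probes disagreed on the size and 1 of the 3 was short of 2-fold. Scaled, all 3 had their highest value in the 48 h high-dose array, but the unscaled signal of the third was 383 there against 405 in the 48 h control. At 3 h no probe differed by 2-fold at either dose.

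Csf1r is a defining gene of macrophages. Of 6 macrophage markers measured on both 48 h arrays, 4 were 2-fold higher in the high-dose array and 0 lower, and 5 more were higher as a bound. Of all genes measured in that pair, 9.94% were higher and 10.1% lower. Of 18 macrophage markers 9, 10 and 6 were above background in the 3 h arrays (control, low, high), and 12 in the 48 h high-dose array against 6 in the 48 h control. Their summed linear level was 21.3, 23.0 and 21.8 at 3 h, and 24.0 in the 48 h high-dose array against 26.4 in the 48 h control. Itgam made up 74.7% of the sum in the 48 h high-dose array and 97.3% in the 48 h control, at a level of 4.16 against 4.68. Tyrobp was at -1.03 in the 48 h high-dose array and not above background in the 48 h control, and Ctss was at 1.43 against -4.67. C1qa was above background only on the 48 h high-dose array. Spi1, Cd163, Cx3cr1 and Fcgr1 were not above background on any array, nor was Ptprc in the 48 h pair.

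In the 3 h high-dose array against the 3 h control, 6 of the 18 markers were measured, 0 were 2-fold higher and 1, Ctss, was lower, with Tyrobp also lower as a bound. Itgam lay at 4.41 against 4.32 in that pair and Cd14 at -1.58 against -2.12. The standing Csf1r probe differed by 0.09 there, and the others by 0.05 and 0.12. Between the high and low doses at 3 h the second probe differed by 0.40. In the 48 h control Csf1r was at 2.89, with 6 of the 18 markers above background. The part of macrophage RNA in the 48 h difference was not tested. Of the 2 ligands, Csf1 was at 2.29 in the 48 h high-dose array against 2.65 in the 48 h control, and Il34 at -4.47 against -2.12, a difference of -2.35. The other 2 Csf1 probes went the other way, at 1.71 against 1.61 and at 1.78 against 1.55 in that pair.

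**Figure D3:**
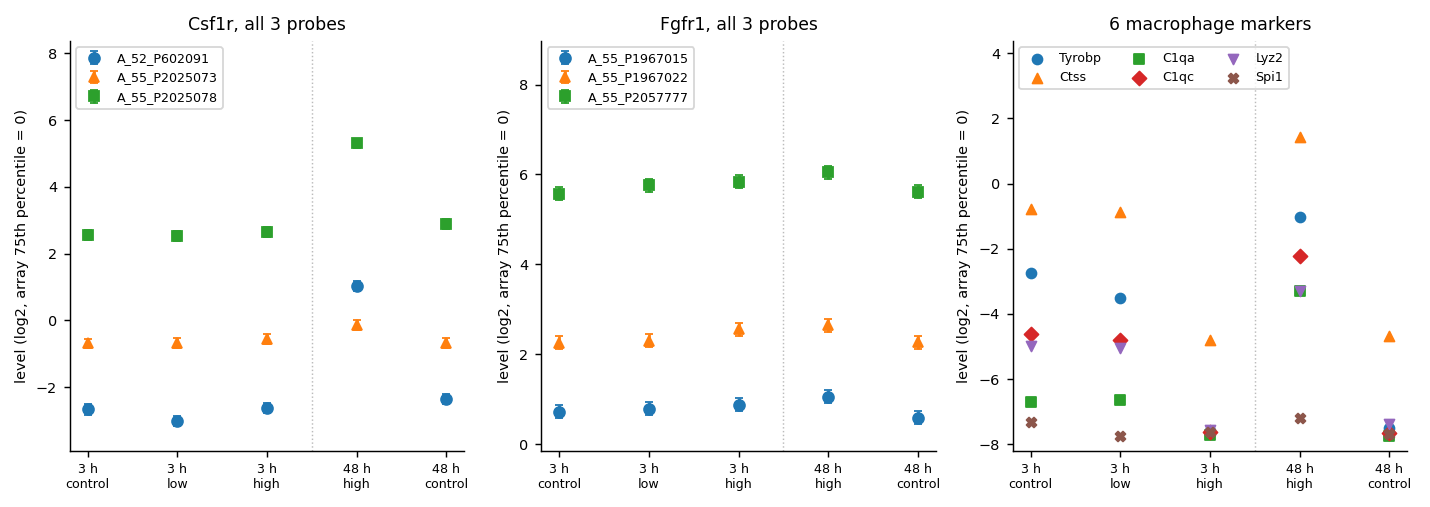
Levels of the 3 Csf1r probes, the 3 Fgfr1 probes and 6 macrophage markers on the 5 arrays, as log2 intensity minus the array's 75th percentile, with 3 h arrays before the 48 h high-dose and control arrays. Each point is a single array, and points not above background carry no mark, among them Spi1 on every array. The 6 markers are a choice from the 18 listed. Itgam, which was lower in the 48 h high-dose array than in the 48 h control, is not shown. The scaled Csf1r probes all peak in the 48 h high-dose array by unequal amounts, the Fgfr1 probes run nearly flat, and Tyrobp and Ctss vary among the 3 h arrays too.

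Among 49 other receptor tyrosine kinases, 32 were measured on both 48 h arrays, of which 4 were higher and 7 lower, with a median of -0.26. Of all genes measured in that pair, 9.94% were higher and 10.1% lower. Another 3 of the receptors, Mertk, Tek and Ror1, were lower as a bound because they were not above background in the high-dose array. The largest difference was that of Egfr, the EGF receptor, at -1.27 in the 48 h high-dose array against 2.70 in the 48 h control. Ltk was higher by 2.10 and Ntrk3 lower by 1.78. Egfr was lower on each of its 3 probes. At 3 h with the high dose, 36 were measured, 1 was higher and 2 were lower, beside 1.85% and 1.45% of all genes. Epha3 differed by 1.27 and Lmtk3 by -1.02, and Epha8 was at least 2.27-fold lower. Epha3 was dim in the 3 h control, at -4.90 where the lowest level above background was -5.18. Against the 48 h control, the 3 h high-dose array differed by 0.72 for Epha3 and by -0.61 for Lmtk3. None of 37 was past 2-fold with the low dose, nor any of 36 between the controls.

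**Figure D4:**
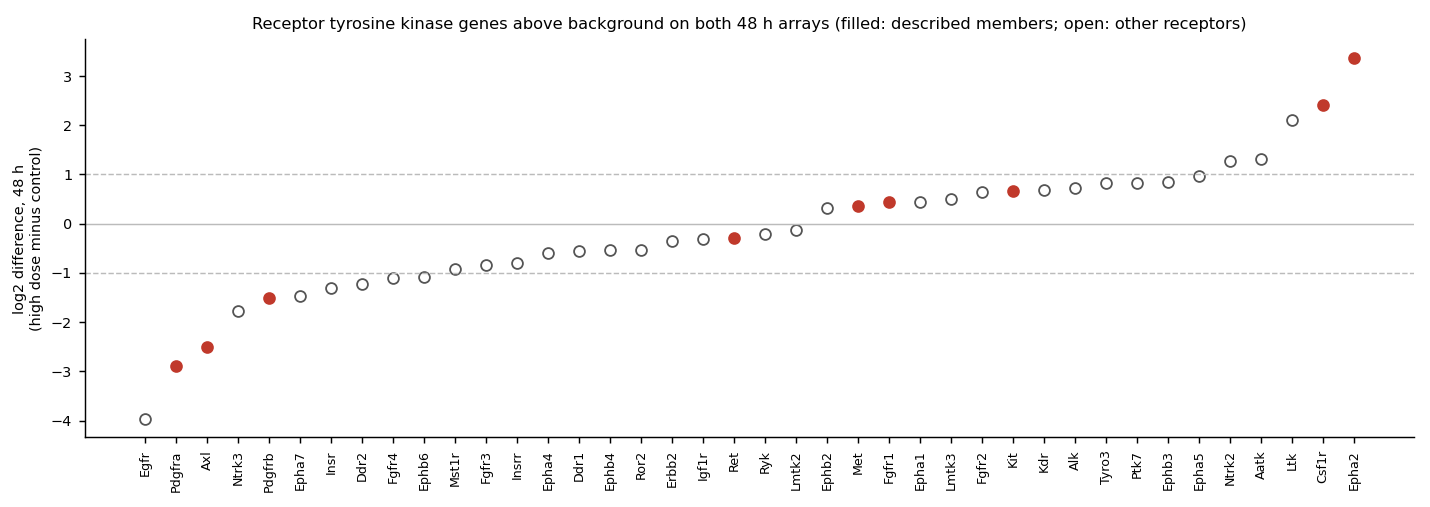
Log2 difference between the 48 h high-dose array and the 48 h control for receptor tyrosine kinase genes above background on both, sorted by size, with the 9 members filled and the others open, 1 of which is not shown. Dashed lines mark 2-fold. Epha2 is at the top end at 3.38 and Egfr at the bottom end at -3.98, with Pdgfra at -2.89 and Axl at -2.51 next to Egfr.

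Downstream of the receptors, 32 adaptor and proximal signalling genes were all measured. At 48 h 5 were higher and 2 lower, beside 9.94% and 10.1% of all genes, with a median of 0.14. Shc3 was 11.1-fold higher, and the docking proteins Dok4 and Dok1 were higher by 2.80 and 2.06. In the 48 h control Shc3 was at -5.15, close to that array's lowest level above background, -5.45, so its fold is uncertain. Irs1, an insulin receptor substrate, was lower by 2.33. At 3 h with the high dose, Irs2 was higher by 1.36 and Sos1, a Ras exchange factor, lower by 1.50, but Sos1 differed by only -0.55 from the 48 h control. In the low-dose array Sos1 was lower by 1.30, and Dok4 was 1.39 higher in the high-dose than in the low-dose array.

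Of 25 listed negative regulators 24 were on the array, and 22 were measured at 48 h, with 3 higher, 5 lower and a median of -0.15. The shares of all genes at 48 h were 9.94% higher and 10.1% lower. Ptpro, a receptor phosphatase, was higher by 2.23 and Ubash3b, a phosphatase that binds ubiquitin, by 2.01, while the ubiquitin ligase gene Cblb was lower by 1.77 and the phosphatase gene Ptprk by 1.74. The dimmer Cblb probe was short of 2-fold, at -3.11 in the 48 h high-dose array against -2.76 in the 48 h control. Socs3, a feedback inhibitor of cytokine signalling, was lower by 1.09 in the 3 h high-dose array. Between the controls Ubash3b was lower by 1.47.

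The members' patterns over the 5 arrays were compared after centring each gene on its own mean. Met and Fgfr1 were the closest pair, with a root mean square difference of 0.118 log2 units, and Axl and Epha2 were the farthest apart, at 2.13. Kit and Ret differed by 0.468 and Pdgfra and Axl by 0.458. Among 13471 genes above background on all 5 arrays, the nearest to Ret were Col27a1 at 0.168 and Pdlim5 at 0.198, and the nearest to Kit were Frmpd1 at 0.173 and Fam20c at 0.241. Nptx1 at 0.129 and Myom2 at 0.133 were nearest to Epha2, Mtss2 at 0.0859 and Hspb6 at 0.103 to Axl, and Tnxb at 0.137 and Ndnf at 0.144 to Pdgfra. For Pdgfrb they were Rflnb at 0.138 and Serpini1 at 0.171, for Csf1r Mastl at 0.0418 and Cks2 at 0.0453, and for Hgf Agrn at 0.0496 and Tspan2 at 0.0624. Met was nearest to Olfr1280 at 0.0187 and Yy2 at 0.0298, and Fgfr1 to Gm5478 at 0.015 and Btbd10 at 0.0171. These are descriptions over 5 arrays, and genes that vary little come out close to each other by this measure. Met and Fgfr1 spanned only 0.458 and 0.474 log2 units. The nearest-gene distances of Met, Hgf, Fgfr1 and Csf1r were below the scanner error of those members' levels. The order of such near genes is therefore not resolved.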

How the data were processed

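Each of the 5 arrays was a one-colour Cy3 scan. The authors deposited linear spot intensities, obtained with Agilent Feature Extraction 10.7.3.1, per the submitters' processing notes; per the file headers, that software subtracted background and detrended each array. Each array held 59305 spots outside the controls, of which 111 to 146 were left out as outliers. None was saturated, and between 55.5% and 60.0% of probes were well above background, which, with 1 array per group, limits the precision.

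Signals were taken to log2, the array's 75th percentile was subtracted and replicate spots were averaged. Being above background required that mark on a share of spots of 0.5 or more. Probes were named by accession through the RefSeq table of GRCm38.p6, used for names because the headers give another build (26413 probes with 1 symbol, 0 with several, 29268 with none). RefSeq promoter windows on GRCm38.p6 gave the sequences. A gene dim on 1 array received a bound, taken from that array's lowest signal above background or its own signal if higher. Differences were computed with Python 3.11.15, numpy 2.4.6 and pandas 2.3.3, and figures with matplotlib 3.10.9. Over 344 to 364 probes with many repeated spots, the median SD of a log2 difference was 0.109 to 0.118. Members with 1 or 2 spots were not among those probes.

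The members and lists were chosen with earlier results of these data known. Named genes are every member, the 4 largest 2-fold differences per list and comparison and the 2 nearest patterns per member, and 1 gene that this rule names is not reported here. Other ligands of members, and other markers and related receptors named, were chosen after their values were seen. The alternatives were median centring, quantile normalization, normexp, no filter on dim probes, the mean of a gene's probes, the deposited value table and the other time's control. The planned normexp on mean spot signals was run on median spot signals, chosen after seeing the data, because the files used hold those. That deposited table lay within 0.01 log2 units of the linear processed intensity for 99.8% to 99.9% of probes, uncentred and unscaled, with medians of 38.3 (3 h control), 32.5 (3 h low), 31.9 (3 h high), 23.9 (48 h high) and 37.7 (48 h control).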

Additional observations from a re-analysis of the deposited data

Results flagged for a closer look

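For 2 members the high-dose differences at 3 h and 48 h had opposite signs and were each larger than the scanner error. Hgf and Axl also changed sign, but their 3 h differences, 0.06 and 0.03, were within it. With 1 array per group the difference between times was not tested. For Ret the high dose minus control was -0.28 at 48 h and 1.58 at 3 h, so the 48 h difference minus the 3 h difference was -1.86. For Pdgfra it was -2.89 at 48 h and 0.25 at 3 h, a gap of -3.14. The 48 h control enters both 48 h values, and it was 0.57 above the 3 h control for Ret and 1.20 above it for Pdgfra. Taken against the 3 h control, the 48 h high-dose array was at 0.29 for Ret, the same sign as at 3 h, and at -1.69 for Pdgfra.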

How the results depend on the processing

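Of 350 values recomputed for the members under the alternatives, 299 kept their size within the error, 51 moved by more and 0 of the 2-fold calls turned round, while 19 differences under 2-fold changed sign. Part of that agreement was fixed in advance. Leaving out the dim filter cannot change members that are above background on every array. Averaging probes cannot change a member with a single probe, and the deposited table holds nearly the same signals. Under the 6 settings that kept the control array, 7 of the 10 member calls were kept in all. The exceptions were Kit at 3 h with normexp (0.85), Pdgfrb at 48 h with normexp (-0.73) and Epha2 at 3 h with median centring (0.94). Median centring also put Pdgfrb 2-fold lower between the controls (-1.07), so 2 members differed between controls. With the other time's control, 3 members were past 2-fold at the low dose, Kit (1.24) and Pdgfrb (1.42) higher and Pdgfra lower (-1.31), while Ret (0.85) was not; of 14333 genes 302 were higher and 464 lower. Normexp added 50 to each signal, which makes the differences of dim probes smaller. The number of all genes past 2-fold depended on the setting. With normexp it was 218 for the high dose at 3 h (462 in the setting reported), 97 for the low dose (193), 127 for high against low (313) and 287 between controls (542). Without a filter on dim probes it was 1359, 819, 1228 and 1361, and 4472 at 48 h (2750). With the other control it was 724 for the high and 766 for the low dose at 3 h. Median centring moved the median of all genes to -0.14 for the high dose at 3 h and to -0.13 between controls, and leaving out the filter moved it to 0.19 at 48 h. Under median centring 40.5% of the calls were higher for the high dose at 3 h (56.1% as reported), 47.4% for the low dose (57.5%) and 47.4% between controls (64.8%). The causes were not tested. No replicate could be left out, with 1 array per group, and no paired analysis was possible because no group has a replicate.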

Other observations

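Endothelial markers include 2 receptor tyrosine kinase genes, Kdr and Tek. Of 8 such markers 4 were above background on each 3 h array, and 2 in the 48 h high-dose array against 4 in the 48 h control. Kdr, the main receptor of vascular endothelial growth factor, lay at 2.63 in the 3 h control, 2.96 with low and 2.96 with high doxycycline, and at 3.32 in the 48 h high-dose array against 2.63 in the 48 h control. Its dimmer probe disagreed on the size, at -0.66 in the 48 h high-dose array against -4.00 in the 48 h control. Tek, the angiopoietin receptor, was not above background in the 48 h high-dose array and lay at -3.98 in the 48 h control. Cdh5 and Emcn, defining genes of endothelium, were above background on no array. Pecam1, another endothelial gene, was above background on all 5 arrays, between -3.46 and -3.17, and Vwf on all but the 48 h high-dose array. The summed linear level of the list, of which Kdr made up between 95.9% and 98.1%, was 6.45, 8.02 and 8.10 at 3 h (control, low, high), and 10.2 in the 48 h high-dose array against 6.46 in the 48 h control.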
